A study of Rattus norvegicus with 12 samples.

Results

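The effect of adding zonisamide to L-DOPA was measured in the dopamine-depleted striatum of the rat, by setting 3 arrays of lesioned striatum from rats given both drugs against 3 arrays of lesioned striatum from rats given L-DOPA alone. These 6 arrays were chosen by their titles out of 12 in the series. All animals were male Wistar rats whose left medial forebrain bundle, which carries the dopamine axons from midbrain to striatum, had been injected with the toxin 6-hydroxydopamine. Only rats that made 7 or more turns per min after methamphetamine (3 mg/kg) were kept, so every group consists of animals with a large lesion by that test. Both drug groups received L-DOPA (100 mg/kg, intraperitoneal) once a day for 7 days, each dose 30 min after benserazide, which blocks the conversion of L-DOPA outside the brain. The zonisamide group also received zonisamide (50 mg/kg, intraperitoneal) 30 min after each L-DOPA dose. The remaining arrays, 3 of lesioned and 3 of non-lesioned striatum from rats given saline, entered the model for its estimate of spread and give the reference levels below. No group received zonisamide alone, so its effect without L-DOPA was not measured. Each group had 3 animals; the ages and the time from the last dose to dissection are not given in the sources used here. Whether 1 array stands for 1 animal follows only from these counts.

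L-DOPA is taken up by remaining cells and decarboxylated to dopamine, which acts on D1 receptors of direct-pathway spiny neurons and on D2 receptors of indirect-pathway spiny neurons. In a denervated striatum, repeated L-DOPA doses are known to drive the D1 pathway strongly, with induction of activity-regulated genes and of the dynorphin precursor Pdyn. Zonisamide is an anticonvulsant sulfonamide known to block voltage-gated sodium channels and T-type calcium channels and to inhibit carbonic anhydrases and monoamine oxidase B. It is used as an add-on to L-DOPA in Parkinson's disease.

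Every value below is a log2 signal relative to the 75th percentile of its own array, so 1 unit is a doubling, and levels of different genes cannot be ranked against each other because probes differ in brightness. In the L-DOPA and zonisamide groups, arrays of equal number lay on 1 slide, but saline arrays of the same number did not all share it. Each change is the mean of 3 within-slide differences, zonisamide group minus L-DOPA group, given with limma's standard error (n = 3 pairs). The 75th percentile of intensity ran from 784 to 1713 units over the 6 arrays, and correlations between them from 0.949 to 0.981. Replicate spots of a probe spread by 12.3% to 15.4% on pairs 1 and 2 but by 24.2% and 27.8% on the arrays of pair 3. Genes shared by spiny neurons of both pathways averaged 3.65, 3.52 and 3.55 on the L-DOPA arrays. On the zonisamide arrays they averaged 3.41, 4.09 and 4.00. Such averages compare arrays and not gene lists. The 3 tested genes of cortical neurons averaged -2.39, -5.14 and -5.29 with L-DOPA and -3.04, -5.44 and -4.66 with zonisamide. Both arrays of pair 1 were thus the highest of their group, and the part of cortex in pair 1 was not tested. Choroid plexus, the secretory tissue of the ventricles, was present unevenly. Its 10 tested markers averaged -3.14, 0.91 and -0.71 with L-DOPA and -3.21, -4.30 and -0.34 with zonisamide, so that the pairs' median differences were -0.06, -4.75 and 0.20. Pairs 1 and 3 were thus nearly matched for this tissue, and pair 2 was not. Its transthyretin transcript, Ttr, showed pair differences of -0.03, -4.55 and -0.22.

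Zonisamide added to L-DOPA was followed by lower signals far more often than higher ones among the features that passed. Of 18925 features tested, 206 (1.09%) passed at an adjusted p under 0.05, 174 lower (0.919%) and 32 higher (0.169%); 129 carry a gene symbol, 110 of them lower and 19 higher. The median change of all features was -0.03 after scaling each array to its 75th percentile, and 0.03 after quantile normalization, under which 127 passed. Under background correction by normexp with quantile normalization the split was 104 lower and 37 higher, 73.8% lower against 84.5%. In each of the 206 the 3 zonisamide arrays lay apart from the 3 L-DOPA arrays and all 3 pairs differed in one direction. Groups lay apart in 3328 features of all those tested (17.6%), 2013 lower (10.6%) and 1315 higher (6.95%), so separation of the arrays alone does not single a gene out. Among the features that passed lower, the median differences were -1.07, -1.61 and -1.40 in pairs 1, 2 and 3, and among those that passed higher 1.04, 1.36 and 1.52. Pair 1 was the smallest in both. That the 3 pairs run one way follows from how these features were selected.

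The number of features that passed rested on a few arrays and on how the slides enter the model. With the slides as a fixed block in place of a random one, 1 feature passed (0.00528%), Erp27, and with no block 107 passed (0.565%). All 206 kept an unadjusted p under 0.05 with the fixed block, but their adjusted p there had a median of 0.128. Left out singly, the L-DOPA arrays of replicates 2 and 3 left 10 and 6 features, and the zonisamide arrays of replicates 2 and 3 left 8 and 28. Without L-DOPA replicate 1 the number rose to 355. Removing lesioned saline replicate 1 or 2 gave 74 and 93, and removing non-lesioned saline replicate 2 gave 134. Without both arrays of pair 2 or of pair 3, 1 and 3 features passed. Without the 5 arrays of the series whose replicate spots spread by over 20%, 1 passed, and with each array's Ttr level as a covariate 36 passed. In each gene list below that has a passed member, none remained with the fixed block, and none remained with at least 1 of the 12 arrays left out, so the counts of passed members are those of the random block with all arrays. With Ttr as a covariate passed members remained in 3 of the lists: 3 for interferon response and antigen presentation, 1 for synaptic vesicle proteins and 1 for homeostatic astrocytes. The smallest p that exact permutation of 3 against 3 arrays allows is 0.1 when the slide pairs are ignored. Keeping the pairs would leave fewer arrangements. Single genes were therefore not tested by permutation.

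**Figure D1:**
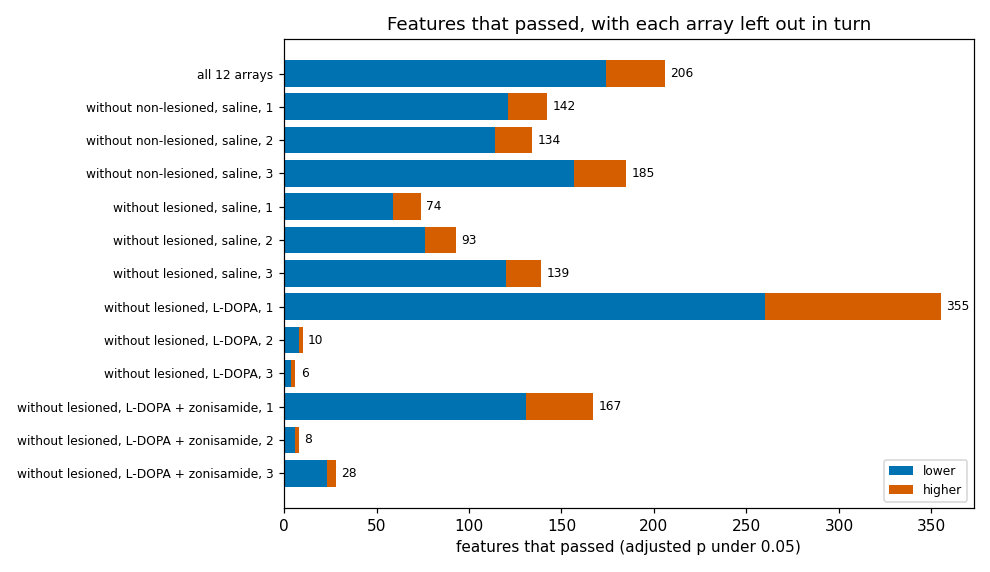
Number of features that passed (horizontal axis; blue lower, orange higher with zonisamide) with all 12 arrays and with each array left out in turn. The count falls from 206 to between 6 and 28 without replicate 2 or 3 of either drug group and rises to 355 without L-DOPA replicate 1.

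**Figure D2:**
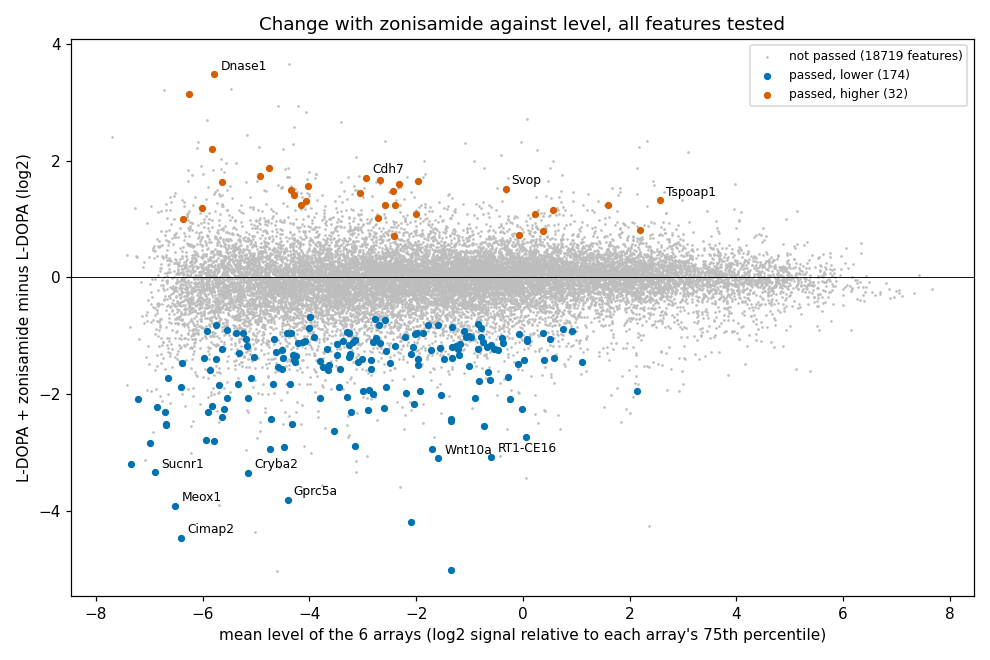
Change with zonisamide (vertical axis, log2) against the mean level on the 6 arrays (horizontal axis, log2 signal relative to each array's 75th percentile). Each point is 1 of 18925 features; 174 passed lower (blue) and 32 higher (orange), over most of the range of levels.

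The 12 largest falls among genes with a symbol were of mixed function, and 2 of them are RT1 genes of antigen presentation, described further on. Cimap2, a protein of ciliary microtubules, stood at -5.20, -3.50 and -3.80 on the L-DOPA arrays (replicates 1, 2 and 3, as in every such triplet below) and at -8.75, -8.79 and -8.35 on the zonisamide arrays. It was not well above background on any zonisamide array and was at least 12.9-fold lower, taking the lowest signal marked as above background on each array as its bound (adjusted p = 0.00485). Meox1, a homeobox factor of the mesoderm, went from -5.46, -4.28 and -3.92 to -7.88, -8.91 and -8.61, also below background on each zonisamide array and at least 9.88-fold lower (adjusted p = 0.00485). These were the only genes of the 24 named by size that passed with each single array left out. In lesioned striatum after saline Cimap2 was at -8.65, -8.72 and -8.68 and Meox1 at -8.33, -8.89 and -8.79, so the L-DOPA arrays were the ones that stood apart.

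Promoters of the 4 largest falls with exactly 1 entry in the RefSeq promoter table (GRCr8) are shown. Genes that fall together invite a look at shared activity-response motifs. Each runs from 250 bases before to 50 after the annotated start. Capitals mark matches on either strand to TGACG (the short form of the cAMP response element), to its full form TGACGTCA, which contains the short form, to TGANTCA (the AP-1 type, bound by Fos and Jun proteins) or to the CArG box of the serum response factor.
Cimap2 (chr5:126630643-126630942, minus strand): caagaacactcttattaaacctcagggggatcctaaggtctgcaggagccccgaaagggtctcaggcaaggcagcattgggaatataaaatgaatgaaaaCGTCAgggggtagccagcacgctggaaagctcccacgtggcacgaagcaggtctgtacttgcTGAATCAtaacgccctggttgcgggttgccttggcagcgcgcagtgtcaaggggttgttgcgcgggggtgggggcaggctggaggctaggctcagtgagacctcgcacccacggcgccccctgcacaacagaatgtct
Cryba2 (chr9:83899082-83899381, minus strand): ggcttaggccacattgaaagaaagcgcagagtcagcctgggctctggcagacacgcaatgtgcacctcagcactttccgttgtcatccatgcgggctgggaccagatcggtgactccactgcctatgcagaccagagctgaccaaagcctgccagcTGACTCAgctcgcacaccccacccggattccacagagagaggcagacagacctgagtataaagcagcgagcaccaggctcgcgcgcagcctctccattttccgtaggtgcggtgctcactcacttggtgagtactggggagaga
Sucnr1 (chr2:146368608-146368907, plus strand): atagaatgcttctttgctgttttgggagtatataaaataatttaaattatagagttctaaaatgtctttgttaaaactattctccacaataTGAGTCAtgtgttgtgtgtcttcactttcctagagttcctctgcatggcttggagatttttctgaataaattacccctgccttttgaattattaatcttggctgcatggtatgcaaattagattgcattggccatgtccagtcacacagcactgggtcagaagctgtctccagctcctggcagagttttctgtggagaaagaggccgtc
Wnt10a (chr9:83798344-83798643, plus strand): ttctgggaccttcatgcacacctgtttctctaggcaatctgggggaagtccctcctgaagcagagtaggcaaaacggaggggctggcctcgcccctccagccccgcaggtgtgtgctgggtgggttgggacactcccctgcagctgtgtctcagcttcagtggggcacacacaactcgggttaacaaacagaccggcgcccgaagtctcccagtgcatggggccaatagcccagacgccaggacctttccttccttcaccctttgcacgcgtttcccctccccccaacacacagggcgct
The AP-1 type motif occurred once in each of the first 3 and not in the Wnt10a window, and Cimap2 also held a short form of the cAMP response element. Of the 85 genes that passed lower and have exactly 1 promoter in the table, 13 held the AP-1 type (15.3%). The share was 7.33% of all 33469 promoters, with every entry of the table counted. It was 5.33% of the 8538 promoters of tested genes with exactly 1 entry, the set chosen in the same way. The short form was in 17 of the 85 (20%), against 21.2% of all promoters and 30.9% of those tested. The full element was in 1 of 85 (1.18%), against 1.83% of all and 3.13% of those tested. The CArG box was in 1 of 85 too, against 1.64% of all and 1.14% of those tested. These shares describe letters in a window and no binding was measured.

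Gprc5a, a retinoic-acid-induced receptor of the G-protein-coupled family, fell by 3.82 on the log2 scale, from -2.01, -2.02 and -3.48 to -5.46, -6.89 and -6.59 (14.1-fold; adjusted p = 0.0108), and was above background on 2 of the zonisamide arrays. Cryba2, a crystallin, went from -4.57, -3.11 and -2.76 to -5.65, -7.65 and -7.19, and its pair 1 difference of -1.08 was far smaller than the other 2. It was above background on 1 zonisamide array. Sucnr1, the receptor for succinate, was below background on all zonisamide arrays and at least 6.28-fold lower. Wnt10a, a secreted Wnt ligand, stood at -0.53, -0.16 and 0.59 with L-DOPA and at -2.0, -4.74 and -2.65 with zonisamide (adjusted p = 0.0480). In each of these 4 genes the pair 1 difference was smaller than that of pair 2.

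Slc39a12, a zinc transporter found in astrocytes, and Hes1 ended below their lesioned saline levels. Slc39a12 stood at -0.54, 0.08 and -0.25 with L-DOPA and at -2.88, -3.33 and -3.32 with zonisamide (7.65-fold lower; adjusted p = 0.0142). Its lesioned saline arrays were at -2.69, -1.34 and -2.61, so all 3 zonisamide arrays lay below them. Hes1, the transcriptional repressor induced by Notch, was at -3.64, -5.54 and -3.98 with L-DOPA, -7.81, -7.16 and -6.63 with zonisamide and -4.91, -4.90 and -4.68 in lesioned saline striatum (adjusted p = 0.0257), above background on 1 zonisamide array. Prdm1, a transcriptional repressor known from plasma cells, was below background on every zonisamide array and at least 4.57-fold lower (adjusted p = 0.0325).

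Apart from Dnase1, the 12 largest rises were smaller by their fitted values than the 12 largest falls. The rises included 2 presynaptic proteins and a lactate carrier. Svop, a transporter-like protein of synaptic vesicles, had the smallest adjusted p of the 12 rises (0.0100, limma). It stood at -0.93, -1.29 and -1.04 with L-DOPA and 0.45, 0.43 and 0.43 with zonisamide. It changed by 1.52 ± 0.18 (2.87-fold higher). Its pair differences were 1.37, 1.72 and 1.47 and its non-lesioned arrays were at 0.53, 0.23 and 0.36. Tspoap1, which ties calcium channels to the presynaptic release site, went from 2.27, 2.03 and 1.44 to 3.25, 3.01 and 3.45 (change 1.32 ± 0.21; adjusted p = 0.0257). Slc16a1, the monocarboxylate transporter MCT1 that carries lactate and ketone bodies, went from -2.99, -2.79 and -3.73 to -1.51, -1.46 and -2.11, 2.78-fold higher (adjusted p = 0.0446). Its lesioned saline arrays were at -1.15, -1.38 and -1.42, so the arrays of both drug groups lay below them, the L-DOPA arrays further. Dnase1, a secreted endonuclease, was at -8.80, -8.47 and -5.29 with L-DOPA, above background on 1 of those arrays, and at -4.09, -4.07 and -3.97 with zonisamide (adjusted p = 0.0453). Its fitted change of 3.48 ± 0.68 includes 2 arrays below background and has no exact size or rank. The same holds among the falls for Cimap2, Meox1, Sucnr1 and Prdm1, which were below background on every zonisamide array.

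The remaining rises ran from 1.09 to 1.71. Cdh7, a cadherin of neuronal adhesion, stood at -2.99, -4.35 and -4.04 and -1.97, -1.79 and -2.49, and Agmat, an agmatinase-like enzyme, rose by 1.24 with only 0.32 in pair 1. Serhl2, C8h11orf87, Nat8f1, Cnksr1 and Morn4 rose by 1.45, 1.25, 1.25, 1.19 and 1.15, Cnksr1 from a level above background on 2 L-DOPA arrays. Spmip8, named for sperm microtubules, ended above every saline array of the lesioned side, at -1.40, -1.72 and -1.25 against -2.67, -2.55 and -2.39.

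**Figure D3:**
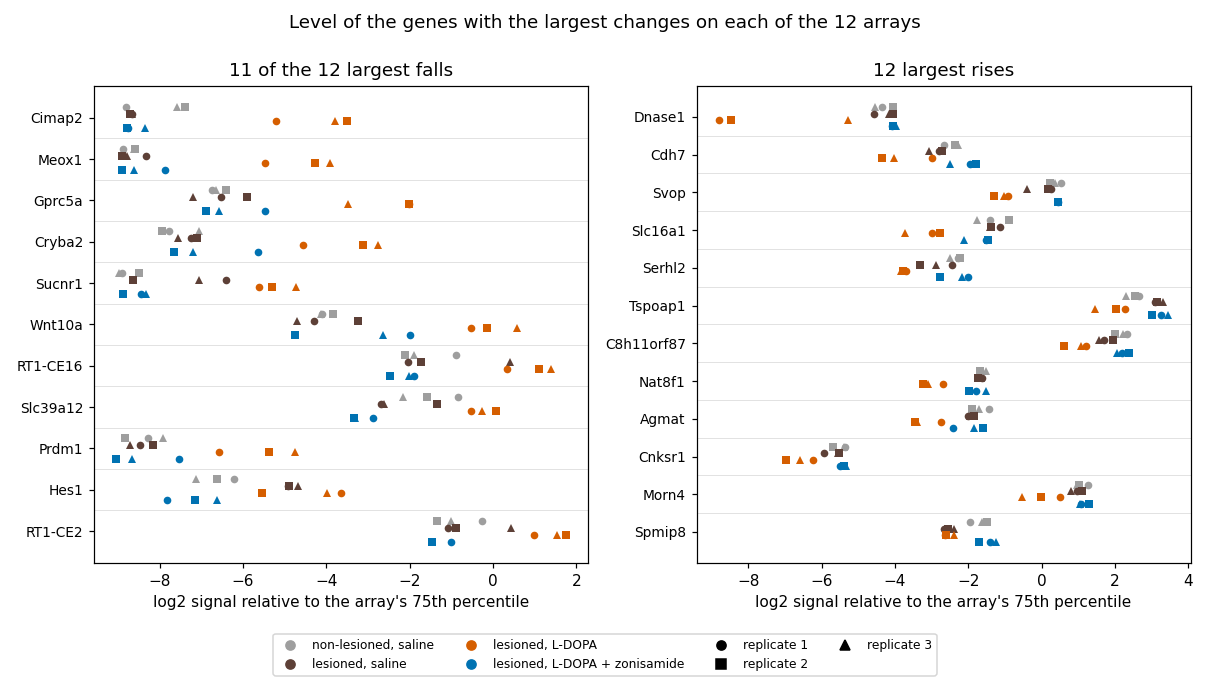
Level of 11 of the 12 genes with the largest falls (left) and the 12 with the largest rises (right) on each of the 12 arrays (horizontal axis, log2 signal relative to the array's 75th percentile; marker shape gives the replicate, colour the group). The orange L-DOPA points lie apart from the blue zonisamide points in every gene shown. Of the 12 largest falls, 5 had a zonisamide mean within the range of the lesioned saline arrays, and of the 12 largest rises 2. Over all features tested the share was 44.5%, so these counts do not single the genes out.

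Genes that load and display antigen were mostly lower with zonisamide. Over all 18925 features 10150 were lower (53.6%) and 8758 higher, and the counts of each list below stand beside that share. Of all features 0.919% passed lower and 0.169% higher. The counts of passed members below are no test against these shares, because the lists were compiled with earlier results known. Of 17 tested genes of the interferon response and antigen presentation, 15 were lower, with a median of -1.05 beside -0.03 for all features. The medians in pairs 1, 2 and 3 were -0.62, -1.61 and -1.16. Of the 17 genes 4 passed, none of them higher. The 4 were Tap1 and Tap2, the peptide pump that feeds MHC class I molecules, Gbp2, an interferon-induced GTPase, and Ifitm3, a membrane protein that blocks virus entry. Tap2 stood at -0.68, -0.40 and -0.85 with L-DOPA and -1.86, -2.06 and -2.17 with zonisamide (2.61-fold lower; adjusted p = 0.0138). Tap1 went from -4.42, -4.24 and -4.01 to -5.53, -6.38 and -5.94 (3.31-fold; adjusted p = 0.0284). Gbp2 went from -0.64, -0.17 and 0.07 to -1.65, -1.93 and -1.73 and Ifitm3 from -1.71, -1.13 and -1.45 to -2.60, -2.93 and -2.70 (changes -1.53 ± 0.20 and -1.31 ± 0.18; adjusted p = 0.0142 and 0.0142). All 4 showed the same picture, with L-DOPA arrays above every saline array and zonisamide arrays within or below the range of the lesioned saline arrays. B2m, the light chain of class I molecules, had -0.41 ± 0.26 and did not pass (adjusted p = 0.523), and its pair 1 difference was positive.

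The RT1 genes are the MHC family of the rat and hold the heavy chains of class I molecules as well as class II chains. They were examined as a family, both classes together, after their values had been seen. Of 38 RT1 genes on the array 29 were tested, 25 were lower, 9 passed lower and none higher. Of all features 0.919% passed lower. The family's median was -1.19 (-0.70, -1.99 and -1.0 in pairs 1, 2 and 3). With Ttr as a covariate 0 of the 9 remained (limma), and the choroid plexus markers too differed most in pair 2. RT1-CE16 and RT1-CE2 are among the 12 largest falls, at -3.08 ± 0.57 and -2.73 ± 0.40. RT1-A1 stood at 2.80, 3.45 and 3.07 with L-DOPA and 1.32, 1.01 and 1.17 with zonisamide, 3.85-fold lower (adjusted p = 0.0168). RT1-CE7, RT1-T18, RT1-S3, RT1-CE11, RT1-CE5 and RT1-A2 fell by between 1.25 and 2.46 on the log2 scale. The class II genes RT1-Db1, RT1-Da and RT1-Bb, expressed by antigen-presenting cells, had -0.50, -1.0 and -1.40 with their brightest probes and none passed. A second probe of RT1-Bb did pass with every probe on its own (adjusted p = 0.0219); it was below background on all zonisamide arrays and at least 40.4-fold lower. A second probe of RT1-Db1 had -1.50 (adjusted p = 0.0574). Class I genes are near-identical and vary between animals of an outbred stock, so their probes may read one another's transcripts and the 9 calls are not 9 separate measurements.

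Genes switched on by neuronal activity were mostly lower with zonisamide, and 4 of them passed. Of 17 tested late activity-response genes 15 were lower, in all 3 pairs for each of these 15, and 3 passed. Of all 18925 features 53.6% were lower, and 4373 features were lower in all 3 pairs. The median of the list was -0.66 (-0.48, -0.66 and -0.58 in the pairs). Nptx1, a secreted pentraxin that gathers glutamate receptors at synapses, stood at 0.66, 0.26 and -0.16 with L-DOPA and at -1.11, -2.02 and -1.38 with zonisamide (3.39-fold lower; adjusted p = 0.0234). Crem, whose short product represses cAMP-driven transcription, went from -0.38, 0.46 and -0.31 to -1.21, -1.09 and -1.52 (2.30-fold; adjusted p = 0.0305). Its 4 further probes had -0.72 to -1.64 and none of them passed. Sik1, a kinase that restrains the CREB coactivators, went from -1.50, -0.86 and -0.93 to -2.28, -2.75 and -2.02 (2.39-fold; adjusted p = 0.0402). Inhba, the activin subunit, had the largest value of this list, -1.94 ± 0.41, without passing (adjusted p = 0.0606). For all 4 genes the L-DOPA and zonisamide arrays did not overlap, as in every feature that passed and in 17.6% of all features.

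Of 25 immediate-early genes 19 were lower and 1 passed. Their median was -0.45 and ran from -0.48 to -0.18 over the alternatives. This was Gadd45b, a growth-arrest protein linked to DNA demethylation, at 0.87, 1.53 and 1.45 with L-DOPA and 0.26, -0.27 and -0.31 with zonisamide (2.62-fold lower; adjusted p = 0.0218). Its zonisamide arrays lay below all 3 lesioned saline arrays, which were at 0.44, 0.35 and 0.59. Maff, Ier2 and Gadd45g had -1.57 ± 0.35, -0.69 ± 0.17 and -0.67 ± 0.19 (adjusted p = 0.0692, 0.0879 and 0.137).

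No neuropeptide precursor passed. Pdyn, the dynorphin precursor of direct-pathway neurons, stood at 3.91, 4.14 and 4.55 with L-DOPA and at 3.26, 3.54 and 3.59 with zonisamide, against 2.50, 2.78 and 2.03 with saline on the lesioned side. The groups did not overlap, as in 17.6% of all features, and the change of -0.74 ± 0.21 did not pass (limma, adjusted p = 0.134). Penk, from which indirect-pathway neurons make enkephalin, had -0.63 ± 0.21 (adjusted p = 0.203) and Tac1, the substance P precursor, 0.42 ± 0.24 (adjusted p = 0.462). Nts and Tac3, the neurotensin and neurokinin B precursors, came closest to passing, with -1.22 ± 0.25 and -1.39 ± 0.31 (adjusted p = 0.0522 and 0.0704). Of the 17 precursors tested 11 were lower and none passed (median -0.30, but 0.04 without zonisamide replicate 2). Of 17 trophic and growth factors 12 were lower (median -0.45) and Wnt10a passed. Gdnf, the glial factor that supports dopamine neurons, had a positive value of 1.21 ± 0.25, from -5.22, -6.29 and -5.61 to -4.75, -4.44 and -4.30 (adjusted p = 0.0546). Tgfb1 had -1.51 ± 0.32 (adjusted p = 0.0600).

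Of the vascular genes listed, most had lower values with zonisamide and 4 passed, none of which remained under quantile normalization, with no block or with Ttr as a covariate. Of 11 tested endothelial genes 9 were lower and 3 passed (median -0.55; -0.47, -0.81 and -0.77 in the pairs). Kdr, the main receptor for vascular endothelial growth factor, stood at 1.35, 2.35 and 1.81 with L-DOPA and 0.26, -0.05 and 0.96 with zonisamide (2.73-fold lower; adjusted p = 0.0453). Cldn5, the claudin that seals the blood-brain barrier, went from 1.34, 1.17 and 1.65 to 0.60, 0.40 and 0.41 (1.89-fold; adjusted p = 0.0419). Pecam1, an adhesion molecule of endothelial junctions, went from -0.94, -0.40 and -0.58 to -1.47, -1.79 and -1.44 (1.90-fold; adjusted p = 0.0464). For Cldn5 the zonisamide arrays also lay below all 3 lesioned saline arrays, at 1.42, 0.93 and 1.05. Angpt2, an angiopoietin released by sprouting vessels, had -2.40 ± 0.53 (adjusted p = 0.0667). In bulk tissue, fewer vascular cells and less RNA per vascular cell cannot be told apart, here and for each cell type below.

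All 9 tested genes of pericytes and smooth muscle were lower (median -0.50, with -0.27, -1.0 and -0.55 in the pairs). Nes, the nestin filament of progenitors and vessel cells, passed at -1.23 ± 0.23 (limma, adjusted p = 0.0402). Kcnj8 and Tagln had -0.94 ± 0.29 and -0.77 ± 0.25 without passing. Of the blood cell genes all 5 tested were lower and none passed (median -0.85); the haemoglobin gene Hba-a1 had -0.83 ± 0.19 (adjusted p = 0.0692) and stood at 5.53, 5.97 and 6.29 and 4.91, 5.32 and 5.06. The part of blood left in the tissue in these vessel values was not tested.

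Matrix and reactive astrocyte genes mostly had lower values, of which 3 passed. All 12 tested matrix proteases and inhibitors were lower (median -0.85; -0.41, -1.84 and -0.44 in the pairs), and Adamts9 was among those that passed. Adamts9, a protease of matrix proteoglycans, went from -2.45, -1.53 and -2.10 to -3.30, -4.28 and -4.34 (3.86-fold lower; adjusted p = 0.0287). Timp1, a metalloprotease inhibitor that astrocytes make after injury, had -2.61 ± 0.56 with pair differences of -0.63, -4.82 and -2.37 (adjusted p = 0.0616). Of 12 reactive astrocyte genes, which include Timp1 too, 10 were lower (median -0.88, with -0.30, -1.55 and -0.90 in the pairs). Emp1, an epithelial membrane protein, passed, going from -3.20, -2.07 and -2.45 to -4.04, -4.00 and -3.66 (2.51-fold; adjusted p = 0.0402). Lcn2, the lipocalin of reactive glia, and Vim, the vimentin filament, had -2.38 ± 0.51 and -0.84 ± 0.21 (adjusted p = 0.0613 and 0.0970). Of the homeostatic astrocyte genes 7 of 11 were lower with a median of -0.10, and 1 passed, Slc39a12. Aqp4, the water channel of astrocyte end-feet, had -0.41 ± 0.21 with its brightest probe, while 1 of its other probes passed at -1.17 ± 0.22 (adjusted p = 0.043 with every probe on its own), and the glutamate transporter Slc1a2 had -0.54 ± 0.35.

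No microglial marker passed. Of 13 tested 10 were lower (median -0.47), with Tmem119 at 0.64 ± 0.18, the integrin Itgam at -2.09 ± 0.65 and Tyrobp at -0.82 ± 0.30. Of 14 oligodendrocyte genes 12 were lower with a median of -0.12 and none passed; Olig1 had -0.48 ± 0.15. All 8 tested meningeal genes and all 10 choroid plexus genes were lower (medians -0.31 and -1.56) and none passed with its brightest probe. A second probe of the collagen Col1a1, a meningeal gene here, had -1.51 and passed (adjusted p = 0.0277 with every probe on its own), against -0.40 for the first. Without pair 2 the medians of both lists were 0.05 and 0.14, so their direction rested on that pair. Of 9 ciliated ependyma genes 3 were lower (median 0.01). The part of choroid plexus in the falls above was not tested beyond the values given: with Ttr as a covariate 25 features passed lower and 11 higher.

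**Figure D4:**
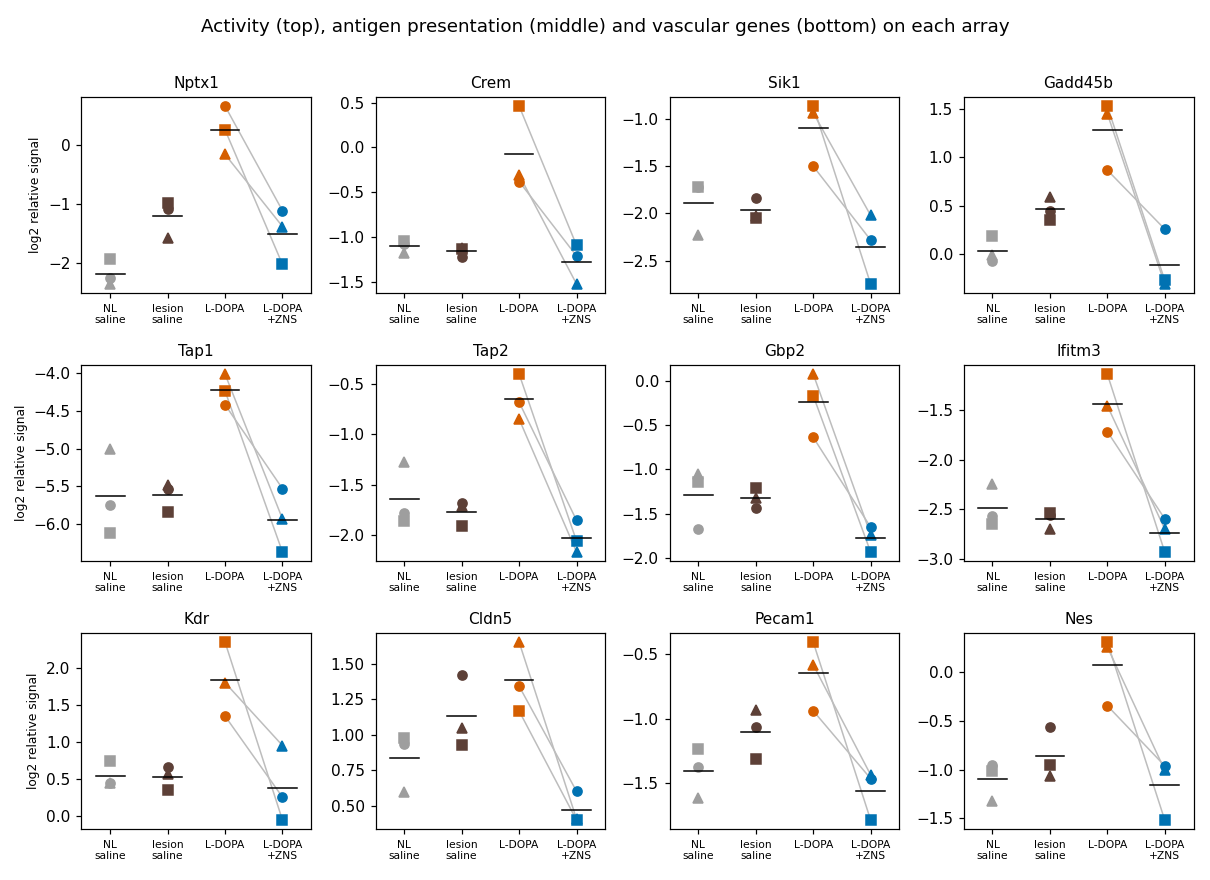
Level on each array (vertical axes, log2 signal relative to the array's 75th percentile) of activity genes (top), antigen presentation genes (middle) and the vascular genes Kdr, Cldn5, Pecam1 and Nes (bottom) that passed. NL is the non-lesioned side and ZNS zonisamide; shapes give the replicate, black lines the group means and grey lines the slide pairs. All 3 pairs fall in each of the 12 panels.

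No marker gene of striatal neurons passed. Of 11 genes shared by spiny neurons of both pathways 4 were lower and none passed (median 0.15). Pde1b, a calcium-activated phosphodiesterase, went from 1.09, 0.78 and 0.46 to 1.36, 2.07 and 2.26 (change 1.12 ± 0.24; adjusted p = 0.0600). Pair 1 differed by 0.27, less than pairs 2 and 3. Of 8 direct-pathway genes 3 were lower (median 0.09); the muscarinic receptor Chrm4 had 1.24 ± 0.32 (adjusted p = 0.11) and the D1 receptor Drd1 -0.07 ± 0.20. Of 5 indirect-pathway genes 3 were lower (median -0.07), with the D2 receptor Drd2 at -0.09 ± 0.21 and the adenosine receptor Adora2a at 0.22 ± 0.21. The values of Drd1 and Drd2 changed sign under other scalings or probe choices, so no direction is given for either receptor. Of 11 interneuron genes 2 were lower (median 0.25) and none passed, with Calb2 at 1.73 ± 0.80 and Sst at 0.86 ± 0.65. Only 3 of 9 cortical genes listed were tested, none passed, and their values ran from -0.27 (Neurod2) to 0.11 (Bhlhe22).

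At synapses, 15 of 21 vesicle and release genes were higher (median 0.22) and the 2 that passed were Svop and Tspoap1, described above. Syt2, a fast calcium sensor, had 1.08 ± 0.27 and Syn2, a synapsin, -0.48 ± 0.22 (adjusted p = 0.0923 and 0.362). Of 18 glutamate receptor genes 14 were higher (median 0.26) and of 18 GABA genes 12 (median 0.20), none passing in either list. Grm4, a presynaptic metabotropic receptor, had 0.93 ± 0.26, and Gabrd, the delta subunit of extrasynaptic GABA receptors, 0.89 ± 0.25 (adjusted p = 0.136 and 0.134).

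The genes that encode zonisamide's known targets did not pass. Of 9 voltage-gated sodium channel genes 6 were higher (median 0.34; 0.19, 0.56 and 0.00 in the pairs). The accessory subunit Scn3b had the smallest p of them, with a change of 0.73 ± 0.20 (limma, adjusted p = 0.131). It stood at 4.19, 4.30 and 3.82 on the L-DOPA and 4.39, 4.98 and 5.13 on the zonisamide arrays. These groups did not overlap, as in 17.6% of all features. Scn8a, the channel of the axon initial segment, had 0.36 ± 0.16, and Scn4b, the subunit most typical of striatum, 0.18 ± 0.19, a value that turned to -0.11 without pair 2. Of the T-type calcium channel genes, Cacna1g had -0.55 ± 0.74 with pair differences of 1.36, -1.48 and -1.55, and Cacna1i -0.39 ± 0.28. Cacna1h is not analysed here. Of 10 carbonic anhydrase genes 7 were lower (median -0.18); Car4, the membrane-bound form on vessels, had -1.07 ± 0.28 (adjusted p = 0.111) and Car2, the abundant cytosolic form of glia, -0.11 ± 0.16. Maob, the monoamine oxidase of astrocytes, had 0.14 ± 0.16 (adjusted p = 0.739), and Th, tyrosine hydroxylase, -0.41 ± 0.30 (adjusted p = 0.592). Of the 6 dopamine genes tested none passed and the median was 0.07; Gch1, which makes the cofactor of tyrosine hydroxylase, had -0.66 ± 0.22.

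Of the metabolic, stress and clock genes 1 passed. In glucose and lactate handling 8 of 13 were lower (median -0.16, from -0.18 to -0.01 over the alternatives) and Slc16a1, described above, passed higher; Slc16a3, the lactate exporter of glycolytic cells, had -1.49 ± 0.35 and the glucose carrier Slc2a1 -0.62 ± 0.15 (adjusted p = 0.0819 and 0.0833). Among endoplasmic reticulum and heat stress genes 10 of 14 were lower (median -0.24), with Hspb1, a small heat shock protein, at -1.24 ± 0.37. Among antioxidant genes 10 of 14 were lower (median -0.17, from -0.20 to -0.03 over the alternatives), with the sulfiredoxin Srxn1 at -1.53 ± 0.31 (adjusted p = 0.0529). Of 10 glucocorticoid-responsive genes 7 were lower (median -0.14), and Map3k6 had -0.95 ± 0.27. Of the clock genes, 11 of 14 were higher (median 0.36; 0.19, 0.38 and 0.37 in the pairs), with Dbp at 0.60 ± 0.17 and Nr1d1 at 0.55 ± 0.17 (adjusted p = 0.139 and 0.166). None of the stress, glucocorticoid and clock genes passed. Over the 33 lists together, 384 genes were tested and 20 passed (5.21%), 17 lower and 3 higher; the lists were compiled with earlier results of these arrays known, so this share is not set against the 1.09% of all features.

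**Figure D5:**
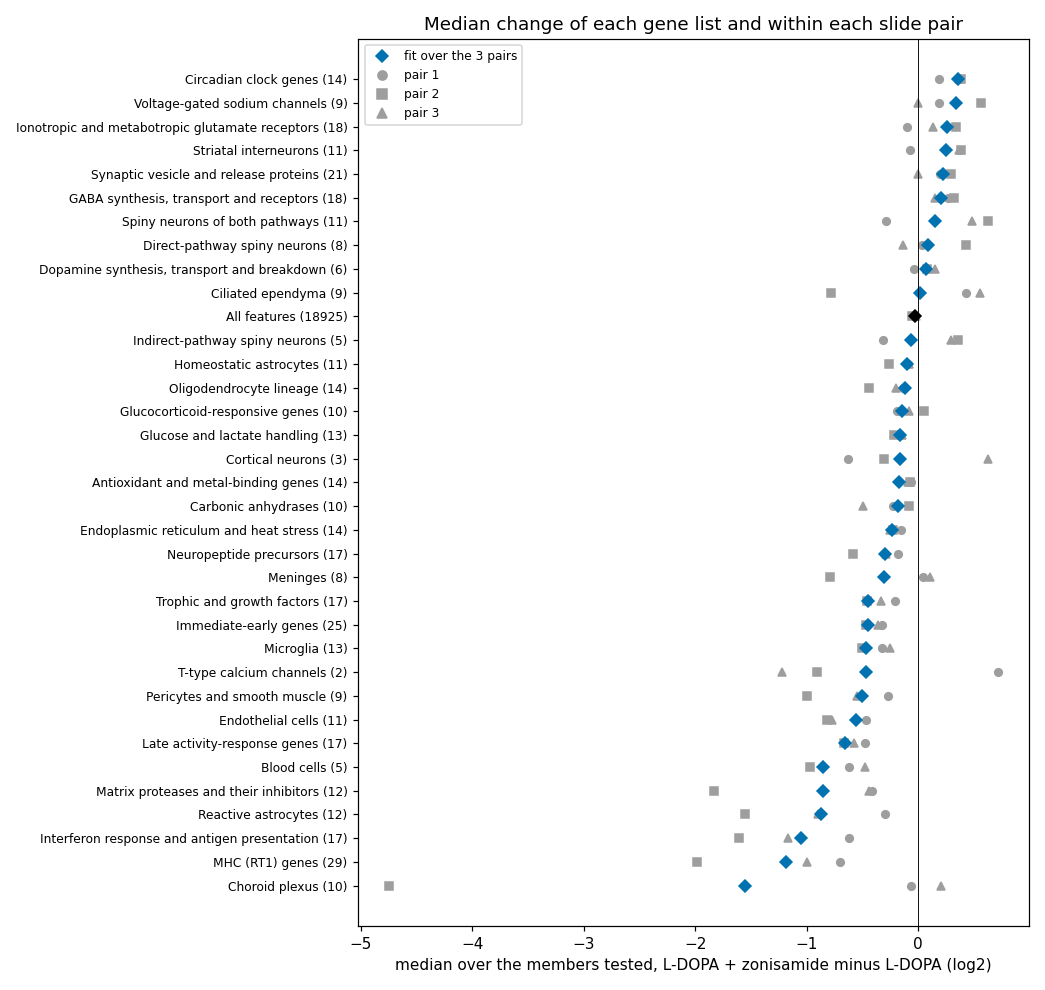
Median change of each gene list (blue diamonds; horizontal axis, log2, zonisamide group minus L-DOPA group) with the medians within slide pairs 1, 2 and 3 (grey circles, squares and triangles); the number of genes tested stands in brackets and the black diamond is all features. The interferon and MHC genes lie near -1 and choroid plexus genes, at -1.56, with pair 2 at -4.75 and pairs 1 and 3 near 0.

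The levels with saline stand beside these changes without being an independent test, because the L-DOPA arrays serve in both comparisons. The features were also selected on those arrays, which raises the counts below that rest on the L-DOPA arrays. Choroid plexus markers averaged -3.14, 0.91 and -0.71 on the L-DOPA arrays and -4.83, -3.31 and -3.66 on the lesioned saline arrays. The L-DOPA arrays lay on slides 1, 2 and 3 and the lesioned saline arrays on slides 1, 2 and 5. The part of tissue or slide in the counts below was not tested. Of the 174 features that passed lower, 150 had every L-DOPA array above every lesioned saline array (12.4% of all features tested). In 57 of the 174 the zonisamide mean lay within the range of the lesioned saline arrays, a smaller share than the 44.5% of all features. Of the 32 that passed higher, 29 had every L-DOPA array below every lesioned saline array (9.64% of all). In 8 of the 32 the zonisamide mean lay within the lesioned saline range, again a smaller share than 44.5%. In 173 of the 206 the zonisamide mean lay closer to the lesioned saline mean than the L-DOPA mean did (52.3% of all). For example, the L-DOPA minus lesioned saline differences were 1.46 for Nptx1, 1.13 for Tap2, 1.31 for Kdr and -1.10 for Svop.

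A gene was represented by its brightest probe, and 15 genes that passed had 18 further probes tested. Of these, 1 pointed the other way, for the endothelin receptor Ednra (0.33 against -1.06). RT1-CE2, RT1-A1, Nes and Acsm5 had another probe that passed in the same direction. Among listed genes that did not pass, Aqp4, Col1a1 and RT1-Bb had another probe that did. The features without a symbol, 64 lower and 13 higher among those that passed, are counted only.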

How the data were processed

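Agilent single-colour (Cy3) arrays of striatal RNA were scanned by the authors, and the scanner software, Feature Extraction 10.7.3.1 by the file headers, gave a processed intensity for each of 62976 spots with background subtracted and no scaling between arrays. The deposited intensity values of the series table equalled these on every spot (relative tolerance 1e-06). Here, outlier and control spots were left out, log2 intensities were reduced by each array's 75th percentile, and spots of a probe were averaged. Probes well above background on all 3 arrays of the L-DOPA or the zonisamide group were kept (20914), and the brightest probe stood for a gene, giving 18925 features. Probes without a symbol were kept. Symbols came from RefSeq accessions (GRCr8), matching 17328 of 30367 probes; the array was designed on an older assembly, so no gene coordinates are given.

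All 12 arrays entered 1 limma fit (3.58.1, R 4.3.3) with 4 groups and slide as a random block (correlation 0.11, 8 residual degrees of freedom). Tests were two-sided, with Benjamini-Hochberg adjustment over all features and a threshold of 0.05; "passed" means below it. The script was tested on simulated data. The labels' replicate numbers coincide with slides for both drug groups, and deviations of same-numbered arrays correlated at 0.345, 0.191 and 0.228, so the numbers pair the arrays. Nothing states more about separate preparation, so p-values measure the spread between these arrays.

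The comparison, the 33 gene lists, the tests and the genes named were chosen with earlier results of these arrays known; 12 genes stand in more than 1 list. Named were the 12 largest falls and rises among symbols that passed without overlap of the groups, the members of each list with the smallest p or that passed, and a fixed set of striatal and drug-target genes; some are not reported here, and exceptions are marked. Alternatives tried were other normalizations, filters, probe rules, blocks, variance models, array weights and leaving arrays out. Leaving out pairs or arrays of wide spot spread, Ttr as a covariate and the RT1 family were chosen after seeing the data.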

Additional observations from a re-analysis of the deposited data

How the results depend on the processing

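The 206 features of the random slide block became 127 under quantile normalization and 103 without the filter on dim probes. The other scalings, probe rules and variance models left 141 to 228. With the replicate block fixed, 1 feature passed on 12 arrays and 0 on the 6 arrays of the comparison (limma; 2283 at an unadjusted p under 0.05). With no replicate block 107 passed on 12 arrays and 0 on 6 (limma; 1965 at an unadjusted p under 0.05). Leaving out single arrays or pairs gave 1 to 355, leaving out the arrays of wide spot spread 1, and Ttr as a covariate 36. Leaving arrays out lowers the number of arrays; the cause of the other changes was not tested. All 206 kept their sign wherever they were tested, which their non-overlapping groups fix for arrays left out. Over 147 genes and 29 settings, 3607 values kept their direction and side of the threshold, 548 lost and 57 gained a call, and 38 changed sign, none of them a gene that had passed. The sign changed for Drd1 under quantile normalization (0.012), normexp (0.019), array weights (0.012) and without the arrays of wide spot spread (0.14). It changed for Drd2 with the mean of its probes (0.058), with every probe on its own (0.20) and without those arrays (0.12), for Bhlhe22 without those arrays (-0.25), for Grik3 (0.054) and Neurod6 (0.008) under quantile normalization, for Neurod6 with array weights (0.11) and for Pfkfb3 without the filter (0.15). With arrays or pairs left out, values ran from -0.79 to 0.73 for Neurod2, -1.28 to 1.00 for Neurod6, -1.08 to 0.13 for Aldh1a2, -0.27 to 0.64 for Bhlhe22, -0.32 to 0.14 for Drd1, -0.31 to 0.12 for Drd2, -0.03 to 1.82 for Tekt2, -0.39 to 0.11 for Grik3, -0.11 to 0.38 for Scn4b and -1.94 to 0.017 for Otx2. Signal over background limits the dimmest genes: 12 features that passed lower were not above background on any zonisamide array, and 2 that passed higher on no L-DOPA array. The cause of these changes of sign was not tested.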

Other observations

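Genes that passed and lie next to each other on the chromosome were listed after their values were seen, using only the gene order of the RefSeq table (GRCr8). Among the 129 genes with a symbol that passed, 14 neighbouring pairs had at most 3 coding genes between them, and 11 of these pairs ran in one direction; 110 of the 129 genes were lower, so most pairs would do so in any case. Several lie in the RT1 region of chromosome 20, with Tap1 and Tap2. Outside it, Wnt10a and Cryba2 on chromosome 9 are separated by 2 coding genes and had -3.10 and -3.35. Sik1 and Hsf2bp, adjacent on chromosome 20, had -1.25 and -2.40, the latter above background on 2 zonisamide arrays. Apold1 and Gprc5a on chromosome 4 have 1 gene between them and had -1.51 and -3.82. Snai3 and Piezo1 on chromosome 19 had -1.87 and -1.27. The opposite case also occurred: the acetyltransferase paralogs Nat8f2 and Nat8f1 on chromosome 4 were at least 4.46-fold lower, below background on every zonisamide array, and higher by 1.25; as they are paralogs, their separate values are uncertain.

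Erp27, an endoplasmic reticulum protein of the disulfide isomerase family, was the 1 feature that passed with the fixed slide block (adjusted p = 0.0466, limma). It was not above background on any L-DOPA array and was at least 2.49-fold higher with zonisamide. With the random block it did not pass (adjusted p = 0.115).

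Other genes that passed were the retinaldehyde dehydrogenase Aldh1a1, which fell by 1.49 on the log2 scale, the nicotinic receptor subunit Chrna5, which fell by 1.54, and the corticotropin-releasing hormone receptor Crhr1, which fell by 2.08. Bag3, a co-chaperone, fell by 0.95, Slc29a1, a nucleoside transporter, had 1.08 and Cbln4, a synaptic organiser, had 1.02. All were chosen after their values were seen.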
